A study of Mus musculus with 13 samples.

Results

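Non-cycling basal keratinocytes of the interfollicular epidermis, the cells that line the basement membrane between the hair follicles, were described here across pregnancy and the weeks after birth. They were chosen from 4 single-cell libraries of mouse abdominal epidermis by their own counts, with a gate on keratin, follicle and cell cycle genes. A total of 8794 of 36927 kept cell barcodes passed this gate. Single cells came from whole epidermis of C57BL/6 mice of the genotype Tbx3creERT2; R26H2B EGFP, in which a tamoxifen-inducible recombinase is expressed from the Tbx3 locus and a histone-EGFP fusion sits at the Rosa26 locus. The 4 states, with 1 library each, were non-pregnant (NP), gestation day 16 (dpc16), and days 6 and 40 post partum (dpp6 and dpp40). Mice of all 4 states received tamoxifen, the NP mice for 3 days and the others in the course of pregnancy, so no state shows untreated skin. A second, replicated measurement came from bulk RNA of sorted interfollicular basal cells (CD49f positive, CD34 negative) of C57BL/6 mice, with 3 libraries each of wild type (WT) mice at dpc16, of K14creERT2;Tbx3flox/flox mice (Tbx3 cKO) at dpc16, and of WT NP mice. In the Tbx3 cKO mice, as the name says, the keratin 14 promoter drives the recombinase in the same basal layer. They entered this work only as a further group for the estimate of spread. The sources used here give neither ages nor mice per library, and do not tell if tamoxifen was given to the WT mice behind the bulk data.

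Basal keratinocytes express the keratin pair Krt5 and Krt14, are held to the basement membrane by hemidesmosomes (the integrin α6β4 complex with laminin-332 and collagen XVII), and are the only layer of the interfollicular epidermis in which cells normally divide. Daughter cells that leave the layer switch to Krt1 and Krt10 and later build the cornified envelope. Abdominal skin expands during pregnancy, and the study sampled it before, during and after that expansion.

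Each value below is a UMI count (unique molecular identifier, 1 per captured RNA molecule) summed over the chosen cells of a library and scaled to their total as CPM, the usual unit for pooled counts. With 1 library per state no test between states was possible, and intervals cover counting error only. The chosen cells held 3857094 UMIs in NP, 20095679 in dpc16, 7244924 in dpp6 and 10555983 in dpp40. Their median depth was 4257 UMIs per cell in NP, 3950 in dpc16, 4927 in dpp6 and 5205 in dpp40, so the dpc16 cells were the shallowest and the dpp40 cells the deepest. Between libraries, pairs shared 70 to 147 of all kept barcode sequences and 0 to 10 of those of chosen cells. The submitters state 6485, 12846, 9029 and 8552 cells for NP, dpc16, dpp6 and dpp40, against 6491, 12853, 9031 and 8552 barcodes kept here.

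Chosen cells made up 13.1% of kept barcodes in NP (849 of 6491, exact binomial 95% interval 12.3 to 13.9%). In dpc16 they made up 35.9% (4614 of 12853, 35.1 to 36.7%), in dpp6 15.7% (1417 of 9031, 14.9 to 16.5%) and in dpp40 22.4% (1914 of 8552, 21.5 to 23.3%). The dpc16 library thus gave the highest share and NP the lowest. The gate asked for at least 0.8% of a cell's UMIs from Krt5 and Krt14, under 0.3% from the suprabasal keratins Krt1 and Krt10, fewer than 2 UMIs of the follicle bulge genes Cd34 and Postn, fewer than 2 of Sostdc1, a gene of specialised epidermal and follicle cells, and fewer than 5 of 6 mitotic genes. Its first step kept 1792 cells in NP, 6834 in dpc16, 2933 in dpp6 and 3417 in dpp40, with already the highest share of kept barcodes in dpc16. Just outside that threshold, at 0.6 to 0.8%, lay 253, 588, 237 and 201 cells of NP, dpc16, dpp6 and dpp40. Just inside, at 0.8 to 1.0%, lay 221, 777, 192 and 265. The share therefore describes how many captured cells met a cutoff in 1 library per state. A larger basal layer and a more efficient capture of it cannot be told apart. The limits on Cd34 and Postn, on Sostdc1 and on mitotic genes are fixed UMI counts, which shallower cells pass more easily. The chosen dpc16 cells were the shallowest, and the part of depth in the share was not tested.

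**Figure D1:**
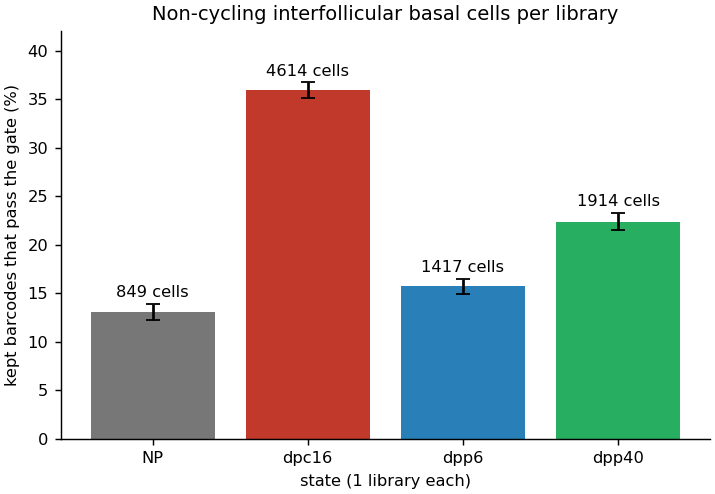
Share of kept barcodes (%) that passed the gate for non-cycling interfollicular basal cells in the NP, dpc16, dpp6 and dpp40 libraries, with exact binomial 95% intervals as bars and cell numbers above. The share was highest in dpc16 (35.9%) and lowest in NP (13.1%), with 1 library per state.

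The marker genes behind the name were present in each library. Krt14 stood at 8749 CPM in NP, 9492 in dpc16, 11042 in dpp6 and 10173 in dpp40, and Krt5 at 5109, 5627, 5299 and 5312 CPM, both as the gate required. Igfbp3, a secreted binding protein of insulin-like growth factors, was not part of the gate and stood at 445 CPM in NP, 455 in dpc16, 804 in dpp6 and 553 in dpp40. Il1r2, the decoy receptor of interleukin 1, stood at 360, 455, 458 and 313 CPM over the same states. Both were detected in 54.2% or more of the cells of each library for Il1r2 and in 42.4% or more for Igfbp3, after thinning cells to 3000 UMIs. Chosen cells with fewer UMIs were left out of all thinned values, 50 in NP, 385 in dpc16, 71 in dpp6 and 0 in dpp40. In cells that the Sostdc1 step removed, Igfbp3 stood lower, at 64.7 CPM in NP, 136 in dpc16, 71.8 in dpp6 and 69.8 in dpp40, and Il1r2 at 63.1, 142, 61.4 and 69.1. Cells of the Cd34 or Postn step were closer, with Igfbp3 at 277, 391.8, 423 and 292 CPM and Il1r2 at 214, 317, 237 and 153, and suprabasal keratin cells held Igfbp3 at 252, 232, 505 and 322 CPM. Both markers were thus present in those cells as well. Krt15, a keratin of resting basal and bulge cells, was among the most abundant transcripts, at 12424, 14308, 12481 and 11100 CPM in NP, dpc16, dpp6 and dpp40.

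Other cell types left traces. The summed levels of 7 Merkel cell markers were between 0 and 0.52 CPM, of 8 endothelial markers between 1.89 and 5.57, and of 8 melanocyte markers between 4.74 and 7.04, and milk protein genes were at or near 0. Of 9 fibroblast markers, Pdgfra was at 0 UMIs in NP, dpc16 and dpp40, and the summed level was 100, 97.1, 91.1 and 89.0 CPM in NP, dpc16, dpp6 and dpp40. Langerhans cell markers (10 genes) summed to 341 CPM in NP, 525 in dpc16, 471 in dpp6 and 470 in dpp40, with none at 0. Of the 6 tested Langerhans markers, 5 (Cd74, H2-Aa, H2-Ab1, H2-Eb1 and Fcer1g) were at least 1.5-fold higher than in NP at each of dpc16, dpp6 and dpp40. Of all tested genes, 3.07%, 4.38% and 2.73% were higher in these states. Fcer1g was under 10 CPM in NP. The fraction of thinned cells holding 5 or more Langerhans marker UMIs was 1.38% in NP, 2.08% in dpc16, 2.23% in dpp6 and 2.14% in dpp40. The 5% of cells with the most such UMIs held 36.0% of them in NP, 61.3% in dpc16, 55.1% in dpp6 and 51.7% in dpp40, so a small number of cells carried much of the signal. The 10 T cell markers, Thy1 among them, summed to 81.9 CPM in NP, 278 in dpc16, 124 in dpp6 and 94.1 in dpp40. At dpc16, 4 of 4 tested (Cd3g, Cd52, Cd7 and Thy1) were at least 1.5-fold higher than in NP, against 3.07% of all tested genes. Of these, Cd52 and Cd7 reached the minimum mean of 10 CPM for testing only with dpc16 included, so they had to differ. T cell markers other than Thy1 were absent from 92.5 to 93.99% of thinned cells of each library. Erythroid markers (6 genes) summed to 77.3 CPM in NP, 40.1 in dpc16, 19.5 in dpp6 and 6.44 in dpp40, and 2 of 2 tested were at least 1.5-fold lower than in NP in each later state. Of all tested genes, 4.44% were lower at dpc16, 3.01% at dpp6 and 2.82% at dpp40. No doublet caller was used, and the part that mixed droplets or free RNA have in these traces was not tested.

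Among themselves the chosen cells varied most in genes of the upper follicle and of differentiation. Ranked by variance beyond counting noise over 1374 genes, the first was Cst6, a cystatin of the upper follicle and granular layer, followed by Defb6, a β-defensin, and Krt79, a keratin of the follicle infundibulum. Cells with at least 10 UMIs of these 3 genes numbered 34 in NP, 150 in dpc16, 77 in dpp6 and 81 in dpp40, which is 4.005%, 3.25%, 5.43% and 4.23% of the chosen cells. They held 70.6% of all UMIs of the 3 genes in NP, 67.1% in dpc16, 81.0% in dpp6 and 67.8% in dpp40. A minority with an upper follicle profile therefore passed the gate in each library, and the name covers it as well. The stress keratin Krt16, the envelope protein Lor, the keratin Krt17 and the growth factor Epgn came next.

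At dpc16 the basal cells were marked by a gut hormone, a matrix protease, a surface glycoprotein and an envelope crosslinking enzyme, and by lower levels of the chemokine Ccl20, of Rspo3 and Wnt16, and of the surface antigen Ly6a. Of 6783 genes with a mean of at least 10 CPM over the 4 pools, 208 (3.07%) were at least 1.5-fold higher at dpc16 than in NP and 301 (4.44%) at least 1.5-fold lower. The median log2 fold over all of them was -0.002. With the trimmed-mean (TMM) scaling of edgeR the counts were 263 higher and 238 lower, so that the share of higher genes among those past the fold was 52.5% in place of 40.9%. The genes named next were the 12 with the highest and the 12 with the lowest fold among genes with a mean of at least 20 CPM.

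Pyy, peptide YY, a hormone best known from the gut, had the highest fold. It stood at 12.4 CPM in NP (9.18 to 16.5, exact Poisson 95% interval), 181 in dpc16 (175 to 187), 210 in dpp6 (200 to 221) and 18.9 in dpp40 (16.4 to 21.8). The levels of dpc16 and dpp6 stood far above those of NP and dpp40. The fold over NP was 14.6 at dpc16 (counting interval 10.96 to 19.8), 16.9 at dpp6 (12.7 to 23.01) and 1.52 at dpp40 (1.11 to 2.13). In cells with at least 1.6% Krt5 and Krt14 UMIs the log2 fold at dpc16 was 5.27, against 3.86 over all chosen cells. This stricter gate left fewer NP cells and so fewer Pyy UMIs in NP, and the larger fold has no interval here and is uncertain. The gene lies at mm10 chr11:102106676-102107832 on the minus strand. Its promoter from RefSeq (GRCm38.p6, 250 bases before to 50 after the start, chr11:102107783-102108082, minus strand) is shown beside that of Tgm3 (chr2:130012090-130012389, plus strand), because these genes were high at dpc16 in single cells and in sorted bulk cells. Capitals mark matches on either strand to TATAAA, the TATA box, or to ACGTG, the core that hypoxia-inducible factors and some clock factors bind. Matches to TTCNNNGAA, bound by STAT factors, and ACANNNTGT, bound by steroid receptors, were searched as well and would also be in capitals.
Pyy: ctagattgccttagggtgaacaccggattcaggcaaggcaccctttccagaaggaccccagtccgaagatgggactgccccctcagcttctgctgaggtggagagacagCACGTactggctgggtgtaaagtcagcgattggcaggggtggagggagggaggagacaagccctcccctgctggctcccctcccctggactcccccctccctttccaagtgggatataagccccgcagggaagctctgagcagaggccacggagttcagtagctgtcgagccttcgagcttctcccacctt
Tgm3: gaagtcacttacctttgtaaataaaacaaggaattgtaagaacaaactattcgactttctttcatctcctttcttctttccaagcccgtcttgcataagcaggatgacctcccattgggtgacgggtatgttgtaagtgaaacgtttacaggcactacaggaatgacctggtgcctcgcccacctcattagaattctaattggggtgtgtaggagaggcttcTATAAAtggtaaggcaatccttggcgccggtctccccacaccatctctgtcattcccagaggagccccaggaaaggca

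The Pyy window holds 1 match to ACGTG and the Tgm3 window 1 match to TATAAA, and neither holds the STAT or steroid receptor letters. Over 27025 mouse promoters of this length, 19.7% hold ACGTG, 14.2% TATAAA, 8.47% TTCNNNGAA and 6.90% ACANNNTGT. Promoters were found for 6 of the 12 genes with the highest folds at dpc16, of which 2 hold TATAAA, 1 ACGTG and 0 the STAT or the steroid receptor letters. These matches describe the windows only.

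Mmp2, the gelatinase that cleaves collagen IV of basement membranes, stood at 13.0 CPM in NP (9.62 to 17.1), 73.9 in dpc16 (70.2 to 77.8), 15.2 in dpp6 and 9.19 in dpp40. Thy1, a glycosylphosphatidylinositol-anchored surface glycoprotein also carried by T cells, stood at 45.4, 188, 40.6 and 36.1 CPM in NP, dpc16, dpp6 and dpp40. Tgm3, an epidermal transglutaminase of the upper layers, stood at 51.3, 202, 65.6 and 21.6 CPM. All were highest at dpc16, by 5.70-fold over NP for Mmp2 (counting interval 4.30 to 7.72), 4.15-fold for Thy1 (3.56 to 4.85) and 3.93-fold for Tgm3 (3.40 to 4.55), and, unlike Pyy, Mmp2 and Thy1 were within 1.5-fold of NP at dpp6. Stfa3, a stefin that inhibits cysteine proteases, stood at 19.4, 73.2, 28.8 and 8.81 CPM over the same states. Reads of Stfa3 may be shared with near copies of the gene, so its level is uncertain. Abcg2, a drug and urate efflux pump, stood at 15.8, 51.0, 19.5 and 15.3 CPM, and Deptor, an inhibitor of the mTOR kinase, at 14.0, 43.9, 19.0 and 14.6 CPM. Mid1, a microtubule-bound ubiquitin ligase, stood at 24.1, 64.5, 14.4 and 16.7 CPM. Immune cells of the same libraries held Deptor at 11.7, 37.2, 23.7 and 12.6 CPM and Mid1 at 11.7, 52.1, 7.92 and 21.0 CPM. For both genes the dpc16 level of the immune cells was near that of the basal cells, and the part of free RNA was not tested. Akr1c18, the enzyme that inactivates progesterone, stood at 23.1, 60.3, 30.2 and 17.5 CPM. Immune cells of the same libraries held Akr1c18 at 49.6, 472, 264 and 25.2 CPM and Sostdc1 cells at 28.9, 331, 163 and 34.6 CPM, well above the basal cells at dpc16, and free RNA as a source of the basal level was not tested. With 1.6% or more Krt5 and Krt14 its log2 fold at dpc16 was 0.57, against 1.38 over all chosen cells, and so no longer past the fold. Slc6a2, the noradrenaline transporter, stood at 16.9, 43.5, 21.7 and 23.02 CPM. The remaining entries were the predicted genes Gm17056 (9.59, 44.3, 22.6 and 33.4 CPM) and Gm26917 (31.9, 132, 50.9 and 36.9 CPM). Gm26917 had nearly the same levels in immune cells of the same libraries, at 38.0, 160, 66.0 and 25.2 CPM.

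Among the lowest folds, Ccl20, a chemokine that draws cells carrying the receptor CCR6, stood at 92.6 CPM in NP (83.2 to 103), 12.3 in dpc16 (10.9 to 14.0), 51.8 in dpp6 (46.7 to 57.3) and 12.2 in dpp40 (10.2 to 14.5). It was 7.5 times lower at dpc16 than in NP (6.36 to 8.86) and 7.57 times lower at dpp40. In each thinned library only 1.70 to 3.12% of cells held a Ccl20 UMI, so the level rested on few cells. Rspo3, an R-spondin that amplifies Wnt signals, stood at 41.7 CPM in NP, 6.22 in dpc16, 24.8 in dpp6 and 53.6 in dpp40, and Wnt16, a Wnt ligand, at 51.1, 8.81, 18.5 and 36.6 CPM. Rspo3 was 6.71 times lower at dpc16 than in NP (5.28 to 8.55) and Wnt16 5.80 times (4.71 to 7.14). Pkib, a small protein that blocks the cyclic AMP-dependent kinase, stood at 98.8, 18.6, 67.1 and 94.4 CPM, so its dpp40 level lay within the NP counting interval of 89.1 to 109 CPM. Ly6a, also called Sca-1, a surface antigen of basal keratinocytes, stood at 380, 82.2, 59.9 and 221 CPM, 4.63 times lower at dpc16 than in NP and 6.35 times at dpp6. Ly6c1, of the same family, stood at 58.1, 20.7, 18.8 and 35.3 CPM. Ly6 genes have close copies, and reads between them may be shared. Further entries were Edn2, endothelin 2 (18.1, 4.33, 40.4 and 22.0 CPM), Fxyd6, a sodium pump regulator (32.1, 9.60, 23.2 and 30.4 CPM), and Txnip, which binds thioredoxin and responds to glucose (390, 146, 195 and 321 CPM). The list ended with Pik3ip1, an inhibitor of phosphatidylinositol 3-kinase (56.3, 21.3, 44.0 and 52.96 CPM), Asprv1, the protease that trims filaggrin (79.9, 30.9, 33.8 and 45.5 CPM), and Lgals9, galectin 9 (30.6, 11.9, 17.7 and 21.0 CPM). Immune cells held Asprv1 at 1013, 205, 227 and 54.7 CPM in NP, dpc16, dpp6 and dpp40, and the part of free RNA in the basal level was not tested. With 1.6% or more Krt5 and Krt14 the log2 fold of Asprv1 at dpc16 was -0.57, against -1.37 over all chosen cells, no longer past the fold.

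**Figure D2:**
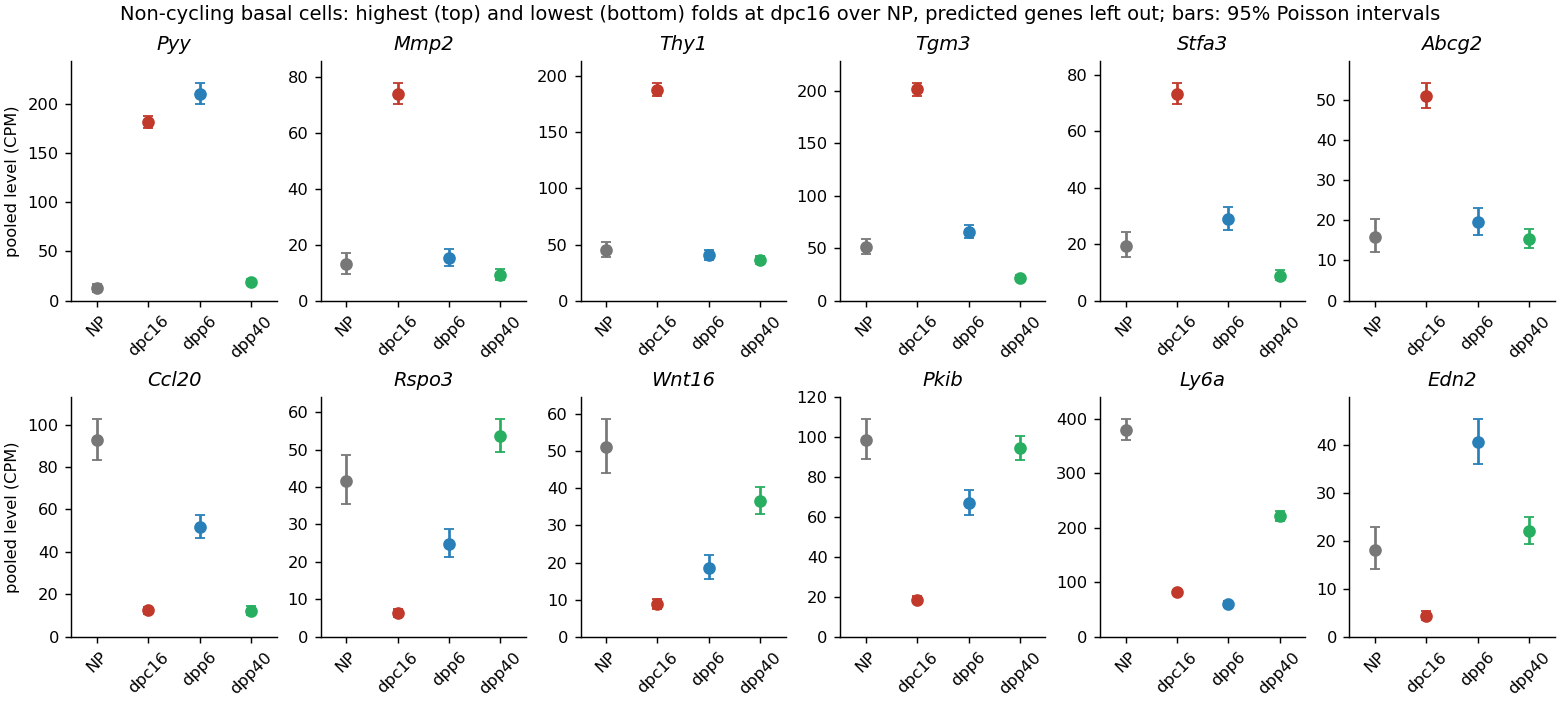
Pooled level (CPM) of 6 genes with the highest and 6 with the lowest fold at dpc16 over NP in non-cycling basal cells, predicted genes left out, with exact Poisson 95% intervals as bars. Pyy was high at dpc16 and dpp6 (181 and 210 CPM), while Mmp2 and Thy1 were high at dpc16 alone among the 4 libraries.

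At dpc16 Thy1 and Tgm3 were seen in many cells, and Pyy, at a pooled level near theirs, in fewer. The pooled level of Pyy was higher at dpp6 than at dpc16, with detection in a smaller share of cells, so it rested on a minority. After thinning to 3000 UMIs per cell, Pyy was detected in 2.38% of cells in NP, 15.5% in dpc16, 10.4% in dpp6 and 2.25% in dpp40. Thy1 was detected in 12.1%, 40.8%, 10.4% and 9.09% of cells over the same states. Tgm3 was detected in 11.1%, 41.4%, 15.4% and 5.17%. At least 1 UMI of Pyy, Mmp2, Thy1, Tgm3 or Stfa3 was found in 29.5% of NP cells, 77.9% of dpc16 cells, 39.2% of dpp6 cells and 19.9% of dpp40 cells, and UMIs of 2 or more of these genes in 3.504%, 40.1%, 7.58% and 1.78%. The other genes were detected at similar or somewhat higher rates in dpc16 cells with Pyy. Mmp2 was detected in 22.0% of cells with Pyy and in 18.2% of cells without it, Tgm3 in 41.5% and 41.4%, and Stfa3 in 21.1% and 14.2%. These shares describe pairs of genes, not how the UMIs of 1 gene were spread over cells. As a measure of free RNA, cells with many T cell or Langerhans UMIs and under 1% keratin UMIs were used, 69 of them in dpc16 and 69 in NP, at median depths of 3355 and 4033 UMIs. Unthinned, Pyy was detected in 18.8% of chosen dpc16 cells against 5.80% of these immune cells, and Tgm3 in 50.5% against 2.90%. Mmp2 was detected in 25.6% of chosen dpc16 cells against 5.80% of immune cells, while in NP its share of 5.30% was below the 10.1% of immune cells and cannot be read as expression. Stfa3 was detected in 18.8% of chosen dpc16 cells against 2.90% of immune cells. Thy1 has no such comparison, since T cells express it.

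**Figure D3:**
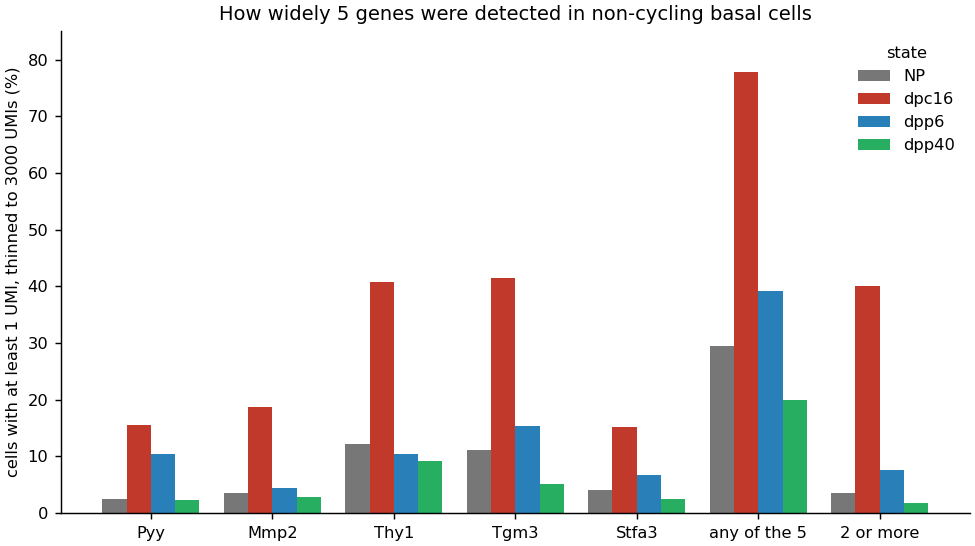
Share of non-cycling basal cells (%) with at least 1 UMI of Pyy, Mmp2, Thy1, Tgm3 and Stfa3, of any of the 5, and of 2 or more of them, after thinning to 3000 UMIs. Cells with fewer than 3000 UMIs were left out. In dpc16, 77.9% of cells held at least 1 of the 5 genes, against 29.5% in NP.

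Hormone pathways were described from gene lists, by counts of members past 1.5-fold. Of all tested genes, 3.07% were higher and 4.44% lower at dpc16. A few members of a short list, some higher and some lower, do not show a change of a pathway. Of 9 tested hormone receptor genes, 2 were higher at dpc16 than in NP, 2 lower, and at dpp6 and dpp40 none was past the fold. Prlr, the receptor of prolactin and placental lactogens, stood at 38.9 CPM in NP (32.9 to 45.6), 80.5 in dpc16 (76.6 to 84.5), 46.7 in dpp6 and 30.4 in dpp40, a 2.07-fold higher level at dpc16. The lower members were Vdr, the vitamin D receptor (36.6, 20.4, 29.7 and 30.8 CPM), and Rarg, a retinoic acid receptor (119, 78.6, 108 and 95.4 CPM). Of 9 genes of the STAT5 pathway, through which prolactin receptors signal, 2 were higher and 2 lower at dpc16. Socs2, a feedback inhibitor of that pathway, stood at 3.63, 40.0, 4.55 and 1.99 CPM, 11.02-fold higher at dpc16 than in NP (6.53 to 20.3, on 14 UMIs in NP). Without dpc16 its mean over the other pools was under the 10 CPM minimum, so it was counted only because of the state in which it was high, and its count supports nothing. Cish, another such inhibitor, stood at 41.7, 76.4, 64.7 and 53.2 CPM, while Socs3 was lower, at 118, 66.3, 173 and 275 CPM.

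Of 14 glucocorticoid-responsive genes, 1 was higher at dpc16, Fkbp5, a co-chaperone of steroid receptors, at 10.4 CPM in NP, 35.7 in dpc16, 5.11 in dpp6 and 4.17 in dpp40. Fkbp5 too reached the minimum only with dpc16 included, so its count supports nothing either. Of all tested genes, 3.07% were higher and 4.44% lower at dpc16. Lower were 3 of the 14 listed genes, the stress gene Ddit4 and the metallothioneins Mt1 and Mt2, zinc-binding proteins. Mt1 stood at 2902, 1248, 1529 and 3361 CPM and Mt2 at 2719, 1369, 1683 and 3191 CPM, so both were low at dpc16 and dpp6 and back at the NP level or above at dpp40. Of 19 Wnt genes 0 were higher and 3 lower at dpc16, against the same shares of all tested genes. These were Axin2, a feedback target (24.1, 12.8, 17.3 and 22.7 CPM), Lgr6, a receptor of R-spondins (21.3, 7.46, 17.0 and 26.5 CPM), and the ligand Wnt5a (11.7, 5.82, 8.56 and 15.5 CPM). For each of the 3 the dpc16 level was the lowest of the 4. Ccl27a, a chemokine that draws T cells to skin, stood at 4378 CPM in NP, 1751 in dpc16, 3508 in dpp6 and 3586 in dpp40. More than 1 gene entry carries that symbol, and reads between copies may be shared. Tbx3, the locus that carries the recombinase, stood at 2.85 CPM in NP (11 UMIs), 9.65 in dpc16 (194 UMIs), 4.14 in dpp6 and 2.46 in dpp40, below the level required for the tested genes. EGFP stood at 0.95 to 2.35 CPM, so labelled cells could not be followed.

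Although mitotic cells were gated out, genes of DNA replication differed between states. The cycle step kept 849 of 988 cells in NP, 4614 of 4863 in dpc16, 1417 of 1486 in dpp6 and 1914 of 2085 in dpp40. It thus removed the largest share in NP, and its part in the differences below was not tested. Of 21 tested S phase genes, 10 were higher at dpc16 than in NP, 7 at dpp6 and 11 at dpp40, with 0 lower, against 3.07%, 4.38% and 2.73% of all tested genes. The list has 40 members, and 2 of the 10 at dpc16 (Mcm3 and Ung), 1 of the 7 at dpp6 (Ung) and 3 of the 11 at dpp40 (Mcm3, Mcm4 and Ung) reached the 10 CPM minimum only with the state in which they were high, so they had to differ. The list's median log2 fold was 0.55 at dpc16, 0.40 at dpp6 and 0.59 at dpp40, where all tested genes had medians of -0.002, 0.02 and -0.05. Mcm3, a subunit of the replicative helicase, stood at 4.15 CPM in NP, 11.7 in dpc16, 8.83 in dpp6 and 15.8 in dpp40. At least 5 UMIs of the list were held by 3.00% of thinned NP cells, 8.28% of dpc16, 6.54% of dpp6 and 9.09% of dpp40 cells. The top 5% of cells held 19.8% of these UMIs in NP, 27.2% in dpc16, 27.6% in dpp6 and 29.0% in dpp40. Cells with 5 or more of these UMIs thus passed the gate in each library and were the smallest share in NP.

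At dpp6 the basal cells had higher levels of many glycolysis and hypoxia, clock and immediate early genes than in NP. Of the 6783 tested genes, 297 (4.38%) were at least 1.5-fold higher than in NP and 204 (3.01%) lower. Of 25 tested genes of glycolysis and hypoxia, 16 were higher and 0 lower at dpp6, against 2 higher at dpc16 and 11 at dpp40. The shares of higher genes over all tested genes were 3.07% at dpc16 and 2.73% at dpp40. The summed level of the list was 3383 CPM in NP, 3874 in dpc16, 5597 in dpp6 and 4482 in dpp40. Egln3, a prolyl hydroxylase that marks hypoxia-inducible factors for decay and is itself induced by them, stood at 11.7 CPM in NP (8.51 to 15.6), 8.71 in dpc16, 53.1 in dpp6 (48.0 to 58.7) and 25.7 in dpp40. Its fold at dpp6 was 4.55 (3.34 to 6.35). Slc16a3, a lactate exporter, stood at 7.52, 7.51, 30.1 and 18.7 CPM, and Tpi1, triosephosphate isomerase of glycolysis, at 151, 145, 336 and 241 CPM. Ndufa4l2, a mitochondrial protein known from hypoxic cells, was outside the list and stood at 529, 408, 1402 and 969 CPM. Pfkl, the liver-type phosphofructokinase, stood at 18.4, 19.7, 46.0 and 40.5 CPM. For each of these 5 genes dpp6 was the highest state and dpp40 the next.

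The promoters of Egln3 (chr12:54203825-54204124, minus strand) and Slc16a3 (chr11:120948817-120949116, plus strand), both RefSeq on GRCm38.p6, are shown because these were members of the list past the fold at dpp6. Capitals again mark the searched motifs, here ACGTG.
Egln3: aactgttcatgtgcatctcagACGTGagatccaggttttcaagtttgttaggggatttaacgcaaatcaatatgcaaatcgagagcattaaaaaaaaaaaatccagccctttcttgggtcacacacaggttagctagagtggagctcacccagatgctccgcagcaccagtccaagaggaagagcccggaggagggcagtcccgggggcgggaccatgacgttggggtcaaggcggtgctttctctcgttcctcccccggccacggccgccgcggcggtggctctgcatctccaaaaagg
Slc16a3: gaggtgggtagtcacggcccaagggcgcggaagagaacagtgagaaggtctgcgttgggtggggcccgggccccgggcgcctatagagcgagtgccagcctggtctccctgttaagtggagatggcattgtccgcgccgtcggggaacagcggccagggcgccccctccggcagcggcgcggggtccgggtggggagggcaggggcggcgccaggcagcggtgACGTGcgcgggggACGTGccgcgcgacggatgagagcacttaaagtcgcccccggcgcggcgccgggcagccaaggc

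The Egln3 window holds 1 and the Slc16a3 window 2 matches to ACGTG. Among glycolysis and hypoxia genes with a promoter in the table, ACGTG was found in 7 of 15 past the fold at dpp6 and in 4 of 7 not past it, so the letters did not separate the members by their fold.

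Of 13 clock genes, 9 were higher and 1 lower at dpp6, against 5 higher at dpc16 and 5 at dpp40. Nfil3, among the higher at dpp6 and dpp40, was under 10 CPM in NP. Of all tested genes, 3.07% were higher at dpc16, 4.38% at dpp6 and 2.73% at dpp40. Dbp, a transcription factor on the output side of the circadian clock, stood at 48.7 CPM in NP, 79.5 in dpc16, 196 in dpp6 and 153 in dpp40. Arntl, a core activator in antiphase to Dbp, stood at 22.6, 18.6, 13.1 and 16.1 CPM. The hour of the day at which each skin was taken is not stated in the labels, and its part in the clock genes was not tested. Of 26 immediate early genes 15 were higher at dpp6 and 13 at dpp40, with 0 lower in either, while at dpc16 none was higher and 1 lower. Their mean was 34.4 UMIs per thinned cell in NP, 40.5 in dpc16, 53.2 in dpp6 and 51.3 in dpp40. Cyr61, a matricellular target of stretch and YAP signals, stood at 395, 394, 771 and 715 CPM. Of 18 genes of cholesterol synthesis and uptake, 6 were higher at dpp6, 4 at dpp40 and 0 at dpc16. In each of dpp6 and dpp40, 3 of the higher genes (Sqle, Insig1 and Stard4) were under 10 CPM in NP. Sqle, which makes squalene epoxide, stood at 7.78, 10.4, 15.6 and 13.5 CPM. The sterol sensor partner Insig1 stood at 9.07, 8.31, 14.9 and 19.9 CPM.

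Apart from Pyy, Egln3, Dbp, Ndufa4l2 and Pfkl, the 8 highest folds at dpp6 were those of Phlda1, an immediate early gene (29.3, 32.3, 86.0 and 55.1 CPM), Trib1, a pseudokinase (21.8, 32.1, 62.7 and 57.1 CPM), and Pxdc1 (23.6, 35.7, 59.8 and 44.8 CPM). Immune cells held Pxdc1 at 120, 249, 290 and 257 CPM and Phlda1 at 161, 100, 135 and 223 CPM, above the basal cells in each library. Trib1 stood there at 17.5, 18.6, 47.5 and 33.7 CPM, and the part of free RNA was not tested. Among the 8 lowest, the predicted gene Gm10076 stood at 398 CPM in NP, 220 in dpc16, 61.7 in dpp6 and 186 in dpp40. Immune cells of the same libraries held it at 374, 223, 75.2 and 181 CPM, close to the basal cells in each library. Gstp1, a glutathione transferase, stood at 38.4, 31.3, 9.66 and 9.38 CPM, and immune cells held it at 40.9, 37.2, 11.9 and 8.41 CPM. Gstp1 has a near copy, and reads between the copies may be shared. Other low genes were Ly6a, Ly6c1, Mt4, a metallothionein of stratified epithelia (121, 70.6, 30.8 and 60.8 CPM), Gm8797 (70.8, 56.8, 19.5 and 26.1 CPM) and Gm8186 (75.7, 35.8, 24.4 and 54.3 CPM). In immune cells Mt4 stood at 64.3, 48.4, 19.8 and 42.1 CPM and Gm8797 at 114, 74.4, 40.9 and 25.2 CPM. Gm8186 stood there at 73.0, 48.4, 23.7 and 71.5 CPM, while Ly6a was far below the basal cells at 17.5, 7.44, 1.32 and 37.9 CPM.

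With the totals taken without mitochondrial and ribosomal genes, the dpp6 counts were 226 higher and 258 lower, and the share of higher genes was 46.7% in place of 59.3%. Of 81 ribosomal protein genes 0 were higher and 9 lower at dpp6, and 0 higher and 6 lower at dpc16, among them Rps27, Rps28 and Rps29 in both. Of all tested genes, 3.01% were lower at dpp6 and 4.44% at dpc16. Rps29 stood at 4577 CPM in NP, 2930 in dpc16, 2555 in dpp6 and 5964 in dpp40.

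At dpp40 the highest folds over NP were those of the predicted gene Gm17056, the clock gene Dbp, the chaperone gene Hspa1a, Trib1 and Hes1. Of the 6783 tested genes 185 (2.73%) were at least 1.5-fold higher than in NP and 191 (2.82%) lower, and with TMM scaling 255 and 131. Of 18 heat shock genes 5 were higher and 1 lower at dpp40, as against 5 and 0 at dpp6 and 1 and 1 at dpc16. The shares over all tested genes were 4.38% higher and 3.01% lower at dpp6, and 3.07% and 4.44% at dpc16. Hspa1a, an inducible chaperone, stood at 207 CPM in NP (193 to 222), 293 in dpc16, 379 in dpp6 and 633 in dpp40 (618 to 649). It has a near-identical copy, Hspa1b, and reads between the copies may be shared. In immune cells Hspa1a stood at 651, 1287, 1311 and 1712 CPM, with NP lowest and dpp40 highest there too. Hes1, a repressor downstream of Notch receptors, stood at 422 CPM in NP (402 to 443), 511 in dpc16, 762 in dpp6 and 1108 in dpp40 (1088 to 1128), a fold of 2.62 at dpp40 (2.49 to 2.76). Of the other 8 tested Notch genes none was higher at dpp40, and Notch2 was lower (17.1, 16.0, 8.70 and 9.66 CPM). Krt16, a keratin of stressed epidermis, stood at 81.4, 86.1, 160 and 197 CPM, and of 10 tested stress keratins and alarmins 2 were higher and 1 lower at dpp40. Socs3, an inhibitor of cytokine signals through STAT3, stood at 118, 66.3, 173 and 275 CPM, and Gadd45b, a stress-induced growth arrest gene, at 60.9, 68.4, 108 and 153 CPM.

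Lower at dpp40 was Fst, follistatin, which binds activin, at 72.9 CPM in NP, 34.0 in dpc16, 25.4 in dpp6 and 27.9 in dpp40. Fst is also a marker of follicle cells, and in cells with fewer than 2 UMIs of other cell types' markers, Fst among them, its log2 fold at dpp40 was 0.85, against -1.38 over all chosen cells. Other low genes were Ccl20, Gstp1, Gm8797, Tgm3, 2310046K23Rik (72.6, 29.6, 28.7 and 28.04 CPM) and Gm10020 (145, 121, 65.0 and 60.1 CPM). In immune cells 2310046K23Rik stood at 578, 52.1, 87.1 and 21.0 CPM and Gm10020 at 108, 59.5, 39.6 and 37.9 CPM. Without the cells rich in Cst6, Defb6 and Krt79 UMIs, an alternative chosen after the data were seen, the log2 fold of 2310046K23Rik at dpp40 was -0.40, against -1.37 over all chosen cells. Gm17056, Dbp and Trib1, with values given above, completed the 8 genes with the highest folds at dpp40.

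For genes that anchor the basal layer, the counts past the fold lay near the shares over all tested genes. Of 18 tested genes of hemidesmosomes and basement membrane, 0 were past 1.5-fold in either direction at dpc16, dpp6 or dpp40, and their summed level was 2484 CPM in NP, 2444 in dpc16, 2482 in dpp6 and 2288 in dpp40. Col7a1, the anchoring fibril collagen, stood at 55.2, 60.4, 53.1 and 43.9 CPM, and Lamb3, a chain of laminin-332, at 139, 104, 134 and 133 CPM. Of all tested genes, 3.07% were higher and 4.44% lower at dpc16, 4.38% and 3.01% at dpp6, and 2.73% and 2.82% at dpp40. Of 24 basal identity genes, 1 was higher and 1 lower at dpc16, 4 and 2 at dpp6, and 2 and 3 at dpp40. Of 74 nuclear genes of the respiratory chain 0 were higher in any state and 1, 2 and 1 were lower at dpc16, dpp6 and dpp40. Granular layer genes were lower, 4 of 5 at dpc16 and 4 of 5 at dpp6, and 0 at dpp40. Lor, the main envelope protein, stood at 443, 225, 249 and 403 CPM, although the gate itself bears on differentiating cells through Krt1 and Krt10. Id1, a target of BMP signals, was the basal identity gene past the fold at dpc16, at 46.1, 93.5, 65.8 and 46.3 CPM. Ccnd2, a G1 cyclin, was one of the genes past it at dpp6 and dpp40, at 463, 676, 849 and 813 CPM.

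**Figure D4:**
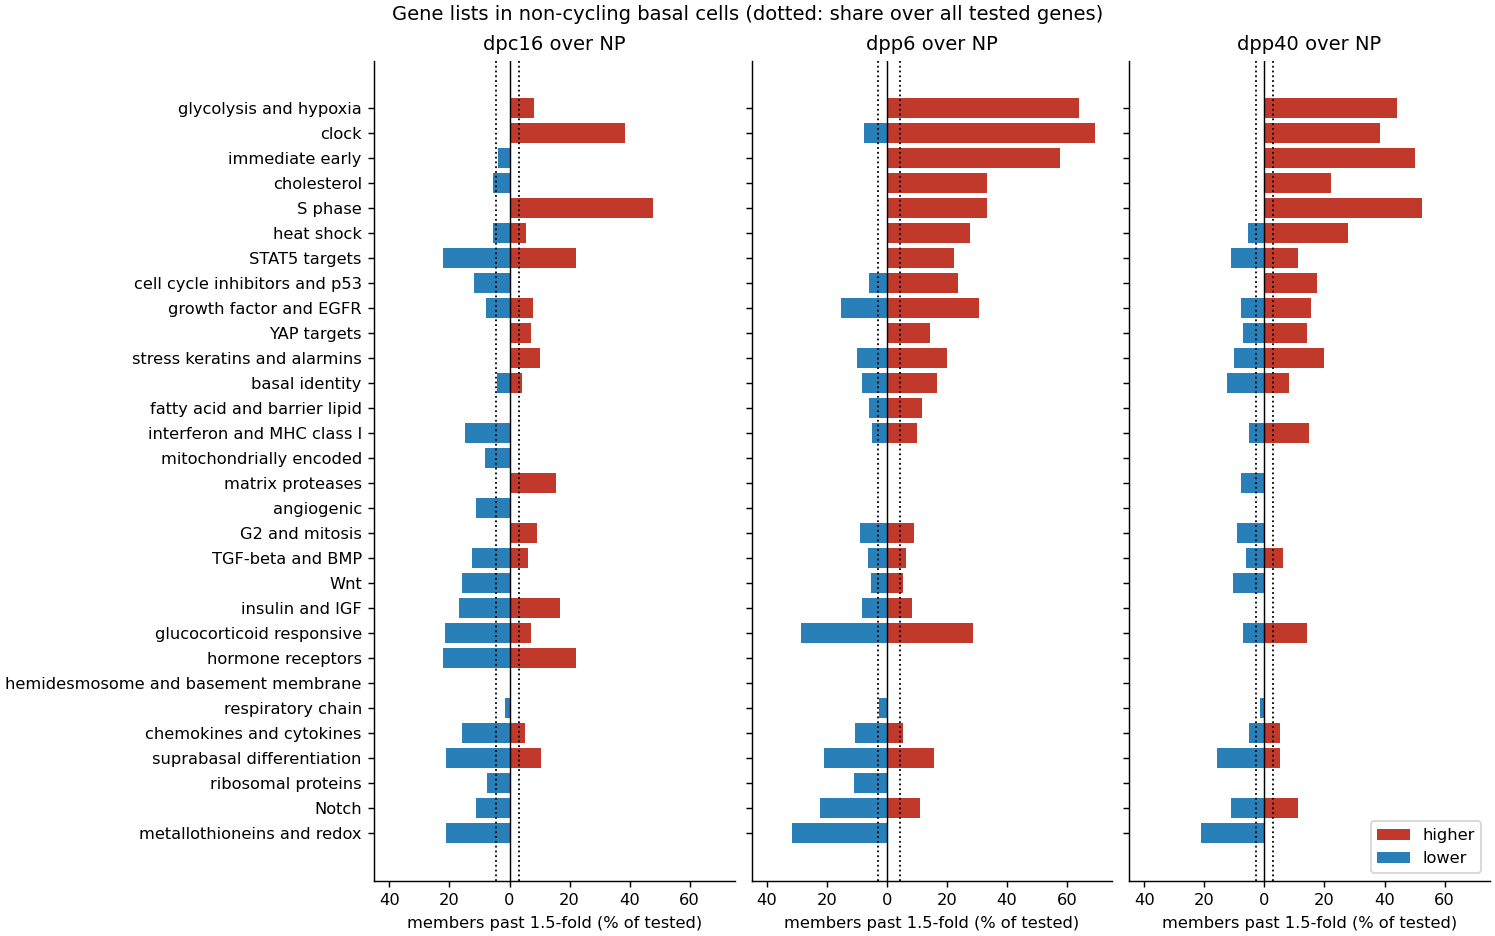
Share of tested members (%) of each gene list at least 1.5-fold higher (right) or lower (left) than in NP in non-cycling basal cells, for dpc16, dpp6 and dpp40, with dotted lines at the share over all tested genes. Glycolysis and hypoxia (16 of 25) and immediate early genes (15 of 26) had high shares at dpp6, with immediate early genes also at 13 of 26 at dpp40. S phase genes were at 10, 7 and 11 of 21 for dpc16, dpp6 and dpp40, and no hemidesmosome gene was past the fold.

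The dpc16 levels of several genes were shared by neighbouring cells of the same libraries. In cells with suprabasal keratins Pyy stood at 237 CPM in dpc16, 239 in dpp6 and 20.8 in dpp40, and was at 0 UMIs in the 82 such cells of NP. In cycling basal cells it stood at 5.66, 227, 25.3 and 1.43 CPM in NP, dpc16, dpp6 and dpp40, so at dpp6 the non-cycling cells (210 CPM) were well above the cycling ones. Thy1 stood higher in cycling than in non-cycling basal cells in each library, at 149, 303, 161 and 108 CPM, against 45.4, 188, 40.6 and 36.1. Mmp2 in suprabasal keratin cells stood at 21.7, 80.3, 25.5 and 21.5 CPM, a dpc16 level close to the 73.9 CPM of the basal cells. Ccl20, low in dpc16 basal cells, stood in Sostdc1 cells at 45.6, 48.8, 155 and 189 CPM, where dpc16 was not the lowest state. Rspo3 stood in suprabasal keratin cells at 78.8, 6.27, 37.7 and 110 CPM, with the same order of states as in the basal cells. The dpp6 genes were high in neighbouring cells as well. Dbp stood at 58.5, 90.9, 278 and 204 CPM in Cd34 or Postn cells and at 20.4, 41.0, 114 and 111 CPM in cycling basal cells over NP, dpc16, dpp6 and dpp40. Egln3 stood at 5.91, 6.27, 47.2 and 16.6 CPM in suprabasal keratin cells, and Ndufa4l2 at 830, 505, 2499 and 1627 CPM in cycling basal cells. The differences between these cell groups were not tested.

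Sorted interfollicular basal cells measured in bulk gave the replicated comparison of dpc16 with NP. These cells are CD49f positive and CD34 negative and include cycling cells, and fewer cells of a type and less RNA per cell cannot be told apart in them. Values are FPKM, fragments scaled by transcript length and library total, compared as log2(FPKM + 1) with limma over all genes. Of 11497 genes, 15 passed at a Benjamini-Hochberg adjusted p under 0.05 (0.13%), 12 higher and 3 lower in WT dpc16 than in WT NP, and 1040 had an unadjusted p under 0.05. Of the 24 genes named for dpc16 in single cells, 22 were tested and 4 passed: Pyy, Tgm3, Deptor and Pkib. Of the 22, 20 had the same sign in bulk as in single cells, against 55.0% of 4451 genes with a mean of at least 20 CPM. The bulk groups did not overlap for 12 of the 22, against 15.6% of all tested genes.

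Pyy was measured at 305, 239 and 193 FPKM in WT dpc16 and at 31.0, 42.7 and 26.3 FPKM in WT NP libraries, groups that did not overlap. It rose in WT dpc16 by a log2 difference of 2.85 (SE 0.26, limma adjusted p = 0.00242). Tgm3 was measured at 112, 111 and 107 FPKM in WT dpc16 and at 19.8, 4.84 and 15.4 FPKM in WT NP, a log2 rise of 3.15 (SE 0.42, limma adjusted p = 0.0252). Deptor was measured at 18.3, 15.6 and 20.7 FPKM in WT dpc16 and at 5.31, 3.93 and 4.84 FPKM in WT NP (log2 1.75, SE 0.21, limma adjusted p = 0.0150). Pkib was measured at 16.8, 41.0 and 25.1 FPKM in WT dpc16 and at 125, 102 and 87.1 FPKM in WT NP (log2 -1.96, SE 0.28, limma adjusted p = 0.0347). The libraries of WT dpc16 lay apart from those of WT NP for each of the genes Pyy, Tgm3, Deptor and Pkib.

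Of the gene list members that also passed, Fkbp5, Prlr and Il4ra are described here. Fkbp5 was measured at 44.7, 56.0 and 37.8 FPKM in WT dpc16 and at 5.76, 5.28 and 7.73 in WT NP (log2 2.70, SE 0.24, limma adjusted p = 0.00242). Prlr was measured at 29.8, 26.0 and 27.3 FPKM in WT dpc16 and at 8.55, 7.57 and 6.21 in WT NP (log2 1.77, SE 0.18, limma adjusted p = 0.00411). Il4ra, the chain shared by the receptors of interleukins 4 and 13, was measured at 79.2, 64.1 and 89.8 FPKM in WT dpc16 and at 20.6, 20.5 and 27.7 in WT NP (log2 1.72, limma adjusted p = 0.0347), and stood in single cells at 22.3, 34.6, 38.9 and 23.6 CPM in NP, dpc16, dpp6 and dpp40. When each of the 9 libraries was left out in turn, Pyy, Fkbp5 and Prlr passed in all 9 fits. Tgm3 passed in 5, and not without WT dpc16 library 1, 2 or 3 or NP library 3. Deptor also passed in 5, and not without WT dpc16 library 1 or 3 or NP library 2 or 3. Il4ra passed in 2 of the 9 fits, those without cKO library 2 or 3, and Pkib in 1, that without WT dpc16 library 2. The limma adjusted p without WT dpc16 library 1 was 0.117 for Tgm3, 0.0938 for Deptor and 0.197 for Il4ra, while that of Pkib was 0.142 with NP library 1 left out, each the highest over the gene's alternatives.

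**Figure D5:**
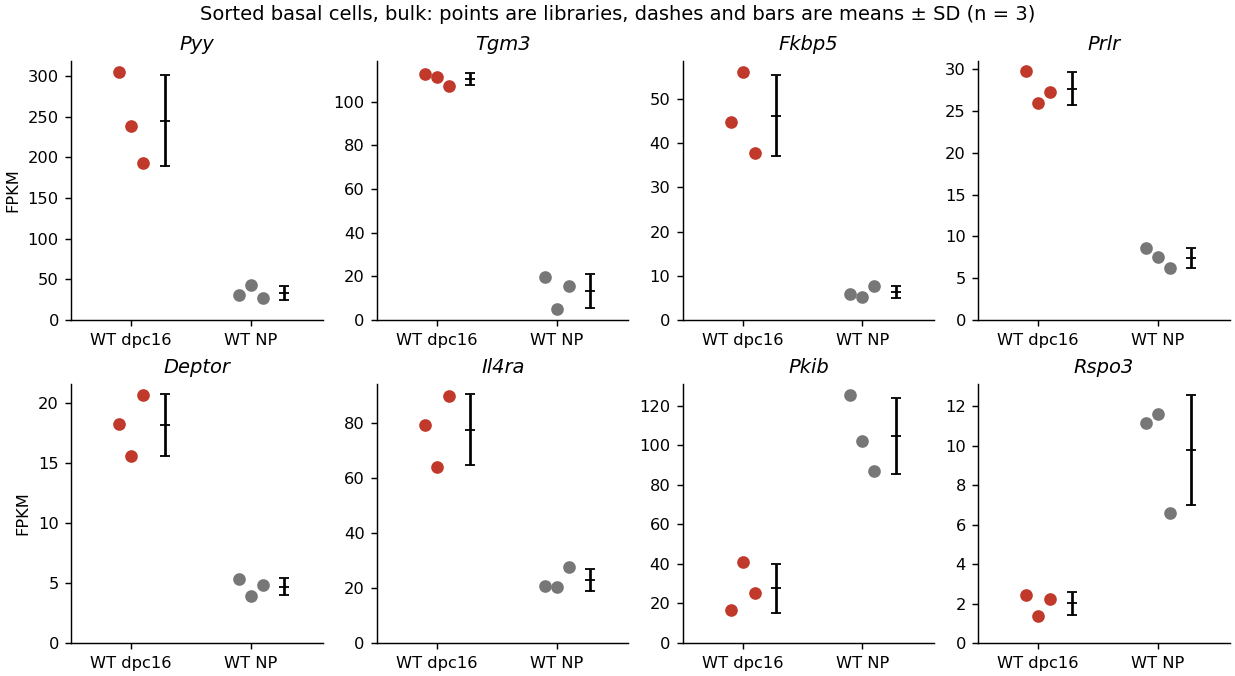
FPKM of 8 genes in sorted basal cells, with 1 point per library, WT dpc16 left and WT NP right, and mean ± SD (n = 3) beside the points. Pyy lay at 193 to 305 FPKM in WT dpc16 and at 26.3 to 42.7 in WT NP, and Pkib and Rspo3 were lower in each WT dpc16 library, Rspo3 without passing the test.

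Genes high at dpc16 in single cells did not all pass in bulk. Mmp2 averaged 123 ± 13.3 FPKM in WT dpc16 and 67.5 ± 9.10 in WT NP (SD, n = 3 each; log2 0.86, limma adjusted p = 0.288), without overlap of the groups. Thy1 averaged 750 ± 94.2 FPKM in WT dpc16 and 492 ± 165 in WT NP (log2 0.67, limma adjusted p = 0.783). Socs2 averaged 14.2 ± 4.30 FPKM in WT dpc16 and 3.23 ± 3.24 in WT NP (log2 2.07, limma adjusted p = 0.146). Akr1c18 had a large difference of 2.87 on the log2 scale and an adjusted p of 0.192 by limma. Rspo3 was measured at 2.44, 1.35 and 2.22 FPKM in WT dpc16 and at 11.1, 11.6 and 6.58 FPKM in WT NP, lower in each dpc16 library, with a log2 difference of -1.83 and a limma adjusted p of 0.124. Lgr6 averaged 16.6 ± 1.77 FPKM in WT dpc16 and 33.2 ± 2.28 in WT NP (log2 -0.96, limma adjusted p = 0.176). Ly6a averaged 366 ± 57.4 FPKM in WT dpc16 and 465 ± 124 in WT NP, overlapping groups (log2 -0.32, limma adjusted p = 0.750), where the single-cell log2 fold was -2.21. Wnt16 averaged 10.2 ± 2.24 FPKM in WT dpc16 and 20.3 ± 13.3 in WT NP, overlapping too (log2 -0.66, limma adjusted p = 0.789). Among the 22 genes named for dpc16 and tested in bulk, Ccl20 and Asprv1 were the 2 of opposite sign. Ccl20 was measured at 5.98, 6.83 and 11.9 FPKM in WT dpc16 and at 8.15, 7.43 and 2.93 in WT NP, overlapping groups. Asprv1 averaged 12.5 ± 2.56 FPKM in WT dpc16 and 9.28 ± 1.70 in WT NP.

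Some list results also differed between the assays. The S phase list had a median log2 difference of -0.57 in bulk, with 0 of 40 members past the threshold in either direction, against 0.55 in the gated single cells. Mcm3 averaged 11.02 ± 1.03 FPKM in WT dpc16 and 23.4 ± 2.63 in WT NP (log2 -1.02, limma adjusted p = 0.0570). The bulk sort kept cycling cells that the single-cell gate removed, so the populations differ. Cd74, of the Langerhans markers, averaged 10.9 ± 3.44 FPKM in WT dpc16 and 25.2 ± 7.14 in WT NP, lower where the single-cell pool was higher. Ccl27a averaged 1289 ± 315 FPKM in WT dpc16 and 1152 ± 154 in WT NP (log2 0.14), where its single-cell log2 fold was -1.32. Its groups overlapped, as did those of Axin2 (log2 -0.11), Rarg (-0.05), Vdr (-0.30), Mt1 (-0.28) and Mt2 (0.04). All of these were lower at dpc16 in single cells, and none passed in bulk. Of 18 hemidesmosome and basement membrane genes 0 passed in bulk, with a median log2 difference of 0.09. The basal markers overlapped between the groups for Krt5 (12734 ± 270 FPKM in WT dpc16 and 11991 ± 1804 in WT NP) and Krt14, while Igfbp3 averaged 381 ± 61.8 and 529 ± 52.7 FPKM in WT dpc16 and WT NP, and Il1r2 377 ± 45.1 and 272 ± 39.9, neither past the threshold.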

How the data were processed

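Single-cell libraries (10x Chromium 3′ v2) were deposited by the authors as UMI counts per gene and barcode, without normalization. Bulk values of sorted cells, from a stranded mRNA kit, were deposited by the authors as FPKM per gene and library. The submitters' processing notes name Cell Ranger 2.2.0, cutadapt 1.14, TopHat2, Cufflinks 2.2.1 and Cuffdiff, and the build mm10. Barcodes were kept from 200 detected genes upwards if mitochondrial UMIs were 10% or less, and then gated. UMIs of the chosen cells were summed per library and divided by their total. Genes with a mean of at least 10 CPM over the 4 pools were compared by fold, 1.5 being counted. Intervals are exact at 95% and cover counting error only. Doublets were not called. The genes named were the 12 highest and 12 lowest folds at dpc16 and 8 each way at dpp6 and dpp40, from a mean of 20 CPM upwards, with up to 6 members of each of 45 gene lists, the 12 most variable genes, the markers, Tbx3 and EGFP. Some genes that this rule names are not reported here. Members and lists were chosen with earlier results of these data known.

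Bulk log2(FPKM + 1) values were filtered to genes averaging 1 FPKM or more in the 9 libraries and fitted with limma 3.58.1 (3 groups, trended variance) and adjusted by the Benjamini-Hochberg method. Depth of the bulk libraries is unknown. Nothing says that the libraries came from separate mice, so p-values measure the spread between these libraries, which may be technical. The bulk headings name WT, non-pregnant and Tbx3 knockout columns in short form. The WT columns were taken as WT dpc16 by exclusion, and library numbers follow the headings and tie no column to a given sample. The bulk fit was tested on simulated data. Alternatives covered scaling, filters, fold, gate, thinning to 3000 UMIs, other cell types' markers, pseudocount and left-out libraries. Software was Python 3.11.15 with numpy 2.4.6, pandas 2.3.3 and scipy 1.17.1, and R 4.3.3 with edgeR 4.0.16 for TMM factors.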

Additional observations from a re-analysis of the deposited data

How the results depend on the processing

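Of 56 pairs of a named gene and a comparison, 52 stayed past 1.5-fold in the same direction under all 10 alternatives run on them. The exceptions were 2310046K23Rik and Fst at dpp40 and Akr1c18 and Asprv1 at dpc16. The log2 fold of Fst at dpp40 was 0.85 without cells holding 2 UMIs of other cell types' markers, a list that includes Fst itself. Counts of genes past the fold followed the filters and are given as higher and lower genes at dpc16, dpp6 and dpp40. With a mean of at least 1 CPM they were 807 and 1208, 1005 and 941, and 787 and 907. With at least 50 CPM they were 41 and 66, 95 and 54, and 60 and 24, and with a fold of 2 they were 49 and 62, 53 and 42, and 32 and 28. With Krt5 and Krt14 at 1.6% or more they were 426 and 607, 592 and 436, and 449 and 538, from fewer cells. Without cells holding other types' markers they were 462 and 350 at dpp6 and 299 and 384 at dpp40. The cause of these differences was not tested beyond the number of genes and cells that each alternative leaves.

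The share of chosen cells in NP, dpc16, dpp6 and dpp40 was 3.42, 12.8, 6.58 and 8.77% with 1.6% Krt5 and Krt14, 12.001, 31.97, 14.6 and 19.97% with Krt1 and Krt10 under 0.15%, and 14.3, 37.6, 17.3 and 24.3% with at most 5% mitochondrial UMIs. Without cells holding other types' markers it was 5.68, 21.6, 8.67 and 10.9%. Without cells rich in Cst6, Defb6 and Krt79, chosen after the data were seen, it was 34.7% in dpc16, 14.8% in dpp6 and 21.4% in dpp40. In each of these dpc16 was highest.

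In bulk, 15 genes passed in the fit reported, 9 with no filter on low FPKM, and 5 to 15 with 1 library left out, the lowest without NP library 3. With the replicate number as a block 10 passed. Same-numbered libraries of WT dpc16 and NP had deviations correlated at -0.07, -0.07 and -0.21. Differently numbered libraries were not compared, so whether the numbers pair the libraries is not known. The block cost Pkib its call (limma adjusted p = 0.108). With no filter Tgm3, Deptor, Il4ra and Pkib also missed the threshold, at limma adjusted p of 0.110, 0.0579, 0.110 and 0.114. Depth limits genes with few UMIs in NP, the smallest pool, such as Socs2 with 14 UMIs.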
